A study of Fraxinus excelsior with 182 samples.

Results

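Fe_g27900, Fe_g44002 and Fe_g32756 are 3 of the 42665 gene models measured in leaves of European ash (Fraxinus excelsior), taken by their identifiers. The annotation given with the genome describes Fe_g44002 and Fe_g32756 as ethylene-responsive transcription factors. It describes Fe_g27900 only by a DNA-binding domain, that of APETALA2 (AP2) and the EREBPs, the ethylene-responsive element binding proteins. All 3 carry that domain. The data are leaf RNA-seq of 182 Danish ash accessions, each a separate tree with 1 library of 100 bp Illumina reads. The study set gene levels in these trees against damage from ash dieback, the disease caused by the fungus Hymenoscyphus fraxineus, and RNA had been taken around the time the leaves flushed. No treatment, genotype class or time point was given in the labels, so the trees formed 1 group and genes were compared with each other across trees. Scores of damage were not used here.

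The AP2/ERF proteins are a large family of plant transcription factors named after APETALA2, a floral regulator of Arabidopsis, and after the ethylene response factors. Ethylene is a gaseous hormone known for its part in leaf senescence, abscission, fruit ripening and defence. In Arabidopsis the signal passes from membrane receptors through EIN2 to the EIN3 transcription factors, which switch on ERF genes, and the ERF proteins then activate or repress their own targets. Which branch of the family each of the 3 ash genes belongs to was not analysed here.

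Levels are given in TPM, a transcript abundance corrected for coding length whose values sum to 1000000 in each tree. The depth behind a TPM value is unknown, so no counting error was given. Each tree had between 31244 and 34889 genes above 0 TPM. The 10 most abundant genes of a tree took 4.25 to 19.99% of its TPM, and because the sum is fixed, a high share lowers the values of all other genes. Plastid genes fixed as a check of green leaf tissue were above 0 in every tree, among them Fe_g32180, coproporphyrinogen oxidase of tetrapyrrole synthesis, at 923 ± 183 TPM, and Fe_g36128, a chloroplast chaperonin, at 389.3 ± 142.97 TPM (SD, n = 182 each). A lower level in whole leaves can come from fewer cells that use a gene or from less RNA per cell, and these cannot be told apart.

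Fe_g27900 was the most abundant of the 3 genes and Fe_g44002 the least. Fe_g27900 ranged over 9.96, 28.6 and 114.1 TPM (lowest, median and highest tree) and averaged 32.6 ± 15.7 TPM (SD, n = 182). No tree lacked it, and its mean lay at the 82.7th percentile of the 31003 genes that had at least 1 TPM in at least 19 trees. Fe_g32756 ranged over 0, 5.92 and 17.7 TPM and averaged 6.48 ± 3.35 TPM. It was listed at 0 in 1 tree and was under 1 TPM in 4 trees. Fe_g44002 ranged over 0, 1.26 and 11.5 TPM and averaged 2.01 ± 2.08 TPM. It was listed at 0 in 2 trees and was under 1 TPM in 84 trees, 46.2% of all.

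The order Fe_g27900 above Fe_g32756 above Fe_g44002 held within all but 8 of the 182 trees. Fe_g27900 was above Fe_g44002 in all 182 trees. Fe_g27900 was above Fe_g32756 in all but 4 trees, and Fe_g32756 was above Fe_g44002 in all but 4 others. The ranges over trees overlapped for each pair, since the lowest Fe_g27900 value was under the highest value of either other gene.

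Relative to its mean, Fe_g44002 varied most among trees. Its coefficient of variation was 103.8%, at the 88.6th percentile of the genes tested. The coefficient of variation was 51.7% for Fe_g32756 and 48.2% for Fe_g27900, at percentiles 67.2 and 63.7. For comparison, the other annotated ethylene-responsive factor on the lists, Fe_g44878, averaged 7.68 ± 2.72 TPM with a coefficient of variation of 35.4%. The EIN3-like gene Fe_g37713, of the step above the ERF genes, averaged 3.85 ± 0.816 TPM with 21.2%. None of the 3 genes split the trees into separate clusters by the density of their log2(TPM + 1) values.

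The tree with the most Fe_g27900, Ash18, had 114.1 TPM of it, 0 TPM of Fe_g44002 and 0.867 TPM of Fe_g32756. Ash15 followed with 86.8 TPM of Fe_g27900, 0.218 TPM of Fe_g44002 and 1.18 TPM of Fe_g32756. In both trees the ethylene-responsive factors were among the lowest values measured. At the other end, Ash138 had 9.96 TPM of Fe_g27900, 3.79 TPM of Fe_g44002 and 11.9 TPM of Fe_g32756. Ash150, the tree with the most Fe_g44002 at 11.5 TPM, had 16.6 TPM of Fe_g32756 and 12.5 TPM of Fe_g27900. That is the reverse arrangement, with Fe_g32756 above Fe_g27900. Ash94 was lowest in Fe_g32756 at 0 TPM and ranked 8 from the lowest in Fe_g27900 at 13.4 TPM, while its 0.709 TPM of Fe_g44002 ranked 59 from the lowest.

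The series lists the trees in 3 stretches of ascending tree number, of 94, 48 and 40 trees. The labels do not call these stretches batches. Fe_g32756 averaged 7.60 ± 3.06 TPM in stretch 1, 6.05 ± 3.68 TPM in stretch 2 and 4.39 ± 2.39 TPM in stretch 3 (SD). Fe_g27900 averaged 31.9 ± 13.1, 29.6 ± 13.7 and 38.01 ± 21.7 TPM in the same stretches. Fe_g44002 averaged 1.94 ± 2.16, 2.33 ± 2.24 and 1.78 ± 1.68 TPM. Relations are therefore also given within stretches.

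**Figure D1:**
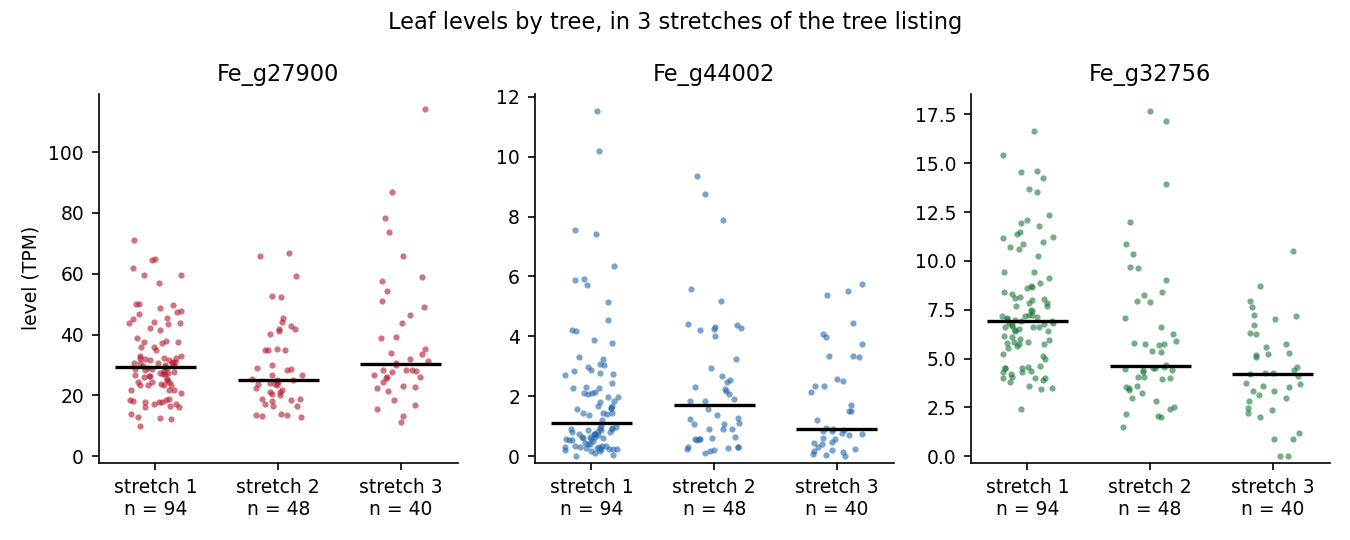
Level in TPM (vertical axes, a separate scale for each gene) of Fe_g27900, Fe_g44002 and Fe_g32756 in each of the 182 trees, split by the 3 stretches of the tree listing. Points are trees and black lines medians. Fe_g27900 reaches 114.1 TPM in 1 tree of stretch 3, Fe_g44002 is crowded near 0 TPM, and the points of Fe_g32756 lie lower in stretch 3 than in stretch 1.

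Trees with more Fe_g27900 had less of both ethylene-responsive factors, and those factors followed each other. These relations were known from earlier results when the genes were chosen, and the study had picked all 3 genes for their relation to damage in the same trees, so the tests describe the relations and are not independent evidence of them. All values below are on log2(TPM + 1), which understates the change of low genes such as Fe_g44002. The P values of pairs are from two-sided permutation tests with 100000 resamples, of which 1e-05 is the smallest possible. Each r was also fitted with limma as a slope across all genes, with P values adjusted over 31002 genes, and a gene with an adjusted P of 0.05 or less is said to follow (positive slope) or to oppose (negative slope) the gene it was fitted on.

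Fe_g27900 and Fe_g44002 were negatively correlated (r = -0.503, 95% interval -0.605 to -0.386, permutation P = 1e-05; rho = -0.506, permutation P = 1e-05). Per SD of Fe_g27900, Fe_g44002 fell by 0.43 ± 0.05 (SE) on the log2 scale, with a limma adjusted P of 6.37e-10. Over all genes, 0.552% opposed Fe_g27900, and Fe_g44002 ranked 11 from the lowest r among 31002 genes. With Fe_g44002 as the lead, Fe_g27900 ranked 2 from the lowest, where 6.62% of genes opposed. Without Ash18 and Ash15, the trees farthest from the median of Fe_g27900, r was -0.487. Within stretches 1, 2 and 3 of the listing, r was -0.556, -0.407 and -0.494, with permutation P of 1e-05, 0.0042 and 0.0013. The sign was the same in each stretch, and the limma fit within a stretch passed adjustment over all genes in stretch 1 only.

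Fe_g27900 and Fe_g32756 were less strongly related (r = -0.299, 95% interval -0.426 to -0.160, permutation P = 6e-05; rho = -0.320, permutation P = 1e-05). Fe_g32756 fell by 0.21 ± 0.05 (SE) per SD of Fe_g27900 with a limma adjusted P of 0.00566, and ranked 48 from the lowest r. Without Ash18 and Ash15, r was -0.239 and no longer passed adjustment over all genes (permutation P = 0.0011), while rho was -0.299. Within stretches, r was -0.449, -0.254 and -0.161 with permutation P of 1e-05, 0.08 and 0.32. The sign was the same in each, and the smaller stretches 2 and 3 did not pass. With Fe_g44002 held in the same fit, r was -0.0497 and did not pass. The relation of Fe_g27900 to Fe_g44002 with Fe_g32756 held did pass, with r = -0.427.

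Fe_g44002 and Fe_g32756 were positively correlated (r = 0.521, 95% interval 0.406 to 0.619, permutation P = 1e-05; rho = 0.470, permutation P = 1e-05). Fe_g32756 increased by 0.36 ± 0.04 (SE) on the log2 scale per SD of Fe_g44002 (limma adjusted P = 1.49e-11), and ranked 79 from the highest r with Fe_g44002. Seen from Fe_g32756, Fe_g44002 ranked 1425 from the highest, in a fit where 47.1% of genes followed. Without Ash150 and Ash45, r was 0.50. Within the stretches r was 0.563, 0.588 and 0.653, and each passed in limma. With Fe_g27900 held, r was 0.449. In the study's annotation Fe_g44002 and Fe_g32756 share the closest ortholog, so they may be similar in sequence. Salmon, which made the estimates, divides a read that fits several transcripts among them, and values of similar genes are to that extent uncertain.

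**Figure D2:**
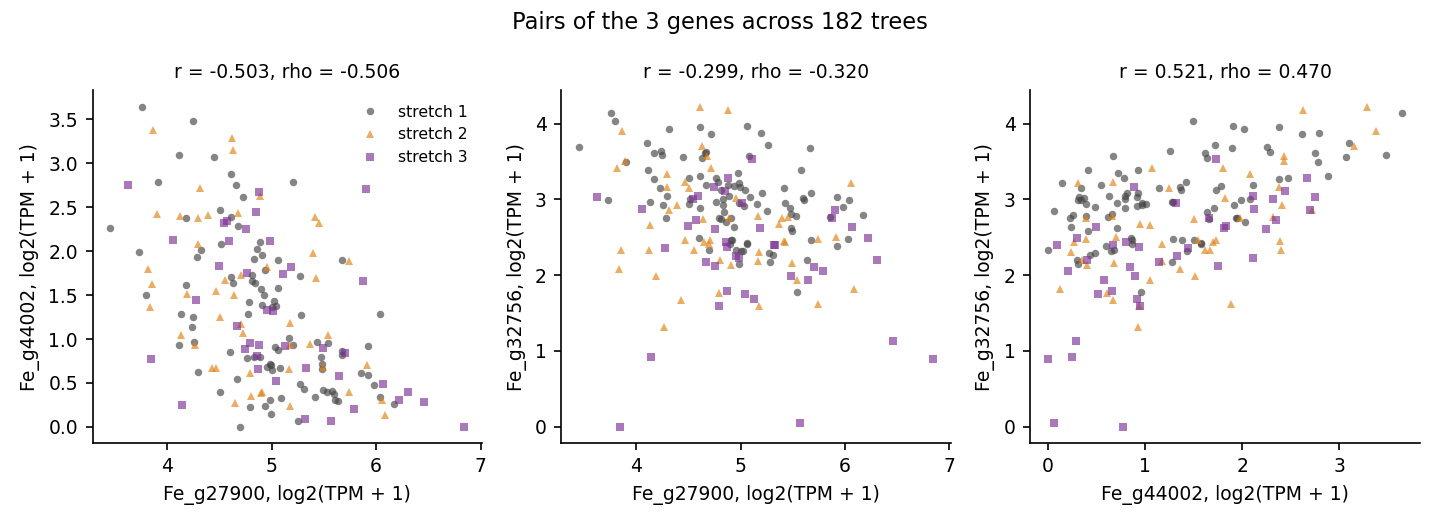
Pairs of the 3 genes across 182 trees, both axes in log2(TPM + 1), with the marker giving the listing stretch of the tree. Fe_g44002 goes down as Fe_g27900 goes up (r = -0.503), the cloud for Fe_g32756 is wider (r = -0.299) with Ash18 and Ash15 at the lower right, and Fe_g44002 and Fe_g32756 go up together (r = 0.521).

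The numbers of genes that followed or opposed each of the 3 differed widely. Fe_g27900 was followed by 609 genes, 1.96% of 31002, and opposed by 0.552%. Fe_g44002 was followed by 5456 genes (17.6%) and opposed by 2053 (6.62%). Fe_g32756 was followed by 14610 genes (47.1%) and opposed by 4859 (15.7%). The median r over all genes was 0.0196 with Fe_g27900, 0.0305 with Fe_g44002 and 0.136 with Fe_g32756. When TPM was rescaled by median-of-ratios factors, which bring the median gene to a common level, that median was -0.0022, 0.0013 and -0.0050, and the counts that followed and opposed were 745 and 567 for Fe_g27900, 4424 and 4105 for Fe_g44002, and 9198 and 9239 for Fe_g32756. Because this scaling centres the median gene, it brings the counts of followers and opponents closer to each other by construction.

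Fe_g32756 moved with measures of the whole library. Its r with the median-of-ratios factor of a tree was 0.615 (rho = 0.503), and its r with the share of TPM in the 10 most abundant genes was -0.531 (rho = -0.310). Each had an adjusted permutation P of at most 0.00016 over 24 relations. Fe_g27900 and Fe_g44002 had r of 0.0948 and 0.138 with the same factor and -0.0342 and -0.0646 with the share, and none of these passed. By r, Fe_g32756 also passed with principal components 1 (0.450), 2 (0.501) and 4 (-0.316) of all genes and with the number of genes above 0 TPM (0.276). Fe_g44002 passed with components 2 (0.384), 3 (-0.377) and 4 (-0.228), and by rho also with component 1 (-0.271). Fe_g27900 passed by r with component 3 only (0.261), and by rho also with the number of genes above 0 TPM (0.198). Leaving out the 18 trees with the largest share, 9.42% or more, left 6399 genes that followed Fe_g32756 and 824 that opposed it. In the remaining trees, r was -0.525 for Fe_g27900 with Fe_g44002, -0.354 for Fe_g27900 with Fe_g32756 and 0.519 for Fe_g44002 with Fe_g32756, close to the values over all trees.

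**Figure D3:**
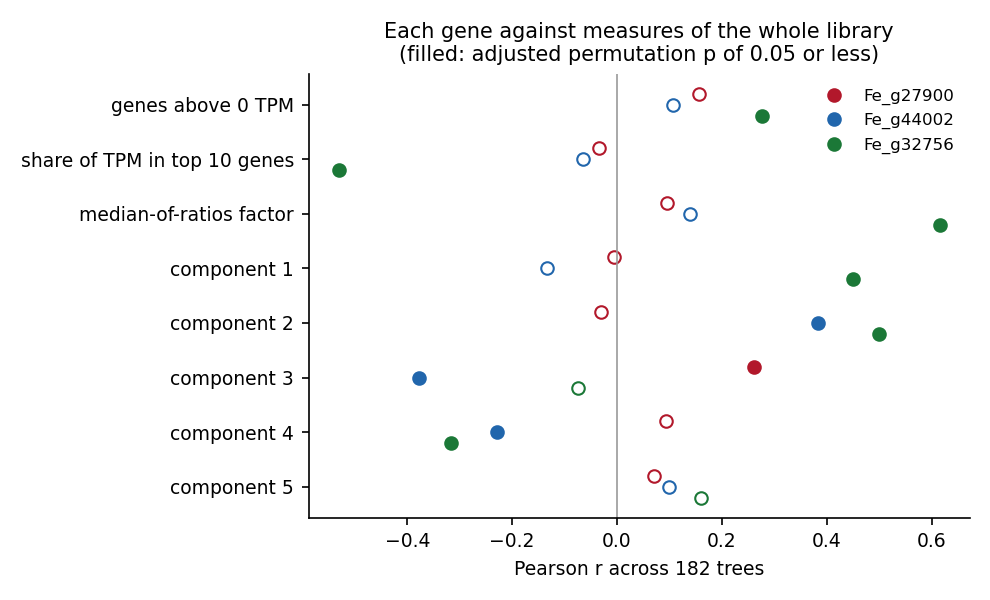
Pearson r across 182 trees (horizontal axis) of each gene's log2(TPM + 1) with 8 measures of the library: genes above 0 TPM, share of TPM in the 10 most abundant genes, median-of-ratios factor and principal components 1 to 5. Filled circles passed at an adjusted permutation P of 0.05 or less. Fe_g32756 lies at 0.615 for the factor and at -0.531 for the share, where the other genes lie near 0.

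**Figure D4:**
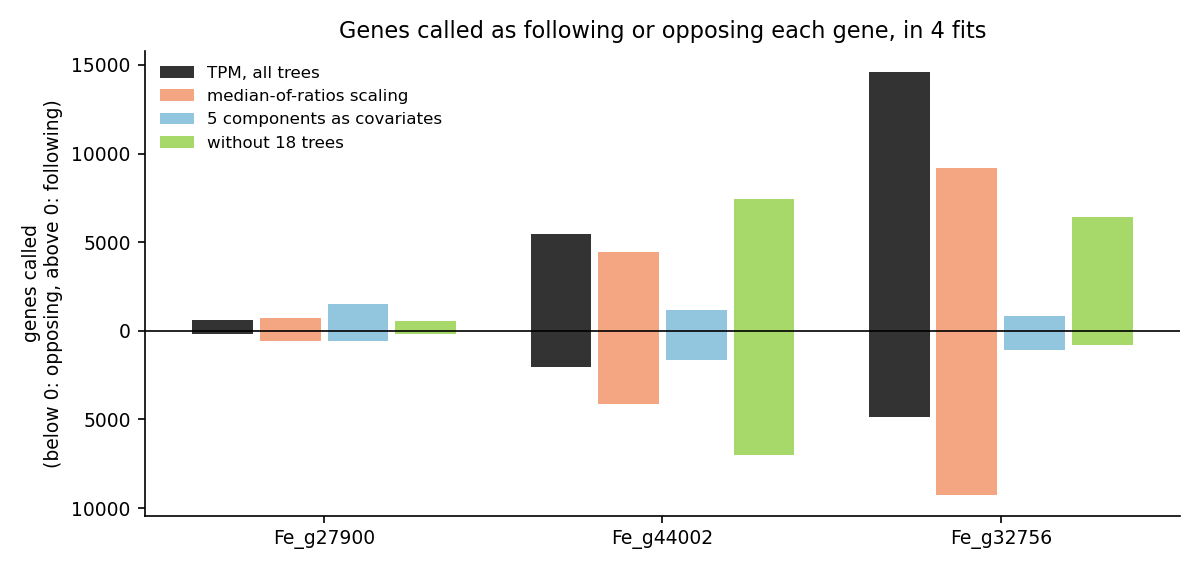
Number of genes (vertical axis, following above 0 and opposing below 0) called with each of the 3 genes under TPM in all trees, median-of-ratios scaling, 5 principal components as covariates, and without 18 trees. For Fe_g32756 the 14610 followers under TPM become 9198 after rescaling, 816 with the components and 6399 without the 18 trees.

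MADS-box genes stood at both ends of the order for Fe_g27900. MADS-box proteins are transcription factors of flowering and seasonal growth, and 11 of the 54 listed genes belong to this family. The study chose them on these same trees for their relation to damage, as it did the other genes listed below, so shared directions among them are not independent evidence. The gene with the highest r with Fe_g27900 was the SVP-like Fe_g22999 (r = 0.605, limma adjusted P = 9.77e-16), at 16.8 ± 9.31 TPM. SVP delays flowering in Arabidopsis by repressing genes such as SOC1. The lowest r was with the SOC1-like genes Fe_g40353 (r = -0.631, adjusted P = 2.21e-17), at 38.3 ± 15.98 TPM, and Fe_g19663 (r = -0.622, adjusted P = 6.31e-17), at 12.7 ± 9.55 TPM. SOC1 promotes flowering in Arabidopsis.

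All 4 SOC1-like genes opposed Fe_g27900, with a median r of -0.595, against 0.552% of all genes and a median r of 0.0196. All 6 JOINTLESS-like genes opposed it too. JOINTLESS is known in tomato for the abscission zone of the flower stalk. The r of 5 of these 6 lay between -0.571 and -0.525, with Fe_g18375 lowest, Fe_g18376 at -0.551 and Fe_g36254 at -0.541. The other, Fe_g18379, split the trees at a density minimum of 2.19 TPM, so its r is given on each side. Above the minimum r was -0.298 with Fe_g27900 (all but 76 trees, adjusted permutation P = 0.0057). Below it r was -0.245 (n = 76, adjusted permutation P = 0.066), and 51 of these trees were at 0. Only 11 genes had r of -0.5 or less with Fe_g27900, all of them annotated: these 10 MADS-box genes, Fe_g18379 being counted over all trees, and Fe_g44002. Members of a MADS-box group resemble each other, and reads may have been divided among them.

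With Fe_g44002 the same groups stood the other way round. All 4 SOC1-like and all 6 JOINTLESS-like genes followed it, against 17.6% of all genes, and Fe_g22999 opposed it (r = -0.341, adjusted P = 6.07e-05). The SOC1-like median r was 0.453, and Fe_g36254 was the highest of the annotated genes at 0.551 (adjusted P = 5.2e-13). On the sides of the Fe_g18379 minimum, r with Fe_g44002 was 0.304 above it (adjusted permutation P = 0.0057) and 0.224 below it (adjusted permutation P = 0.075). With Fe_g32756, 3 of 4 SOC1-like and 5 of 6 JOINTLESS-like genes followed, against 47.1% of all genes. Fe_g40351.1, a SOC1-like gene (r = 0.111), and the SVP-like Fe_g22999 (r = -0.00794) did not pass with Fe_g32756. The call of Fe_g22999 depended on the setting, since it opposed Fe_g32756 with 5 principal components held (r = -0.329) and without the 18 trees (r = -0.234). The JOINTLESS-like genes that followed Fe_g32756 were 3 of 6 without those trees.

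Each of the 3 genes was also fitted, 1 at a time, with the MADS-box genes that lead the study's list as covariates. When Fe_g19663 and Fe_g22999 were held in the fit, r was -0.304 for Fe_g27900 with Fe_g44002, -0.30 for Fe_g27900 with Fe_g32756 and 0.501 for Fe_g44002 with Fe_g32756, and all 3 passed. In that fit none of the other SOC1-like genes and 1 of the 6 JOINTLESS-like genes followed Fe_g44002. The 3 other SOC1-like genes and 5 of the 6 JOINTLESS-like genes still opposed Fe_g27900, as did 4698 of 31000 genes. With Fe_g32756, 1 of the SOC1-like and 3 of the JOINTLESS-like genes followed, as did 14037 of all genes. When instead the other AP2-domain genes were held, Fe_g27900 kept r of -0.503 with Fe_g19663 (adjusted P = 3.29e-09) and 0.557 with Fe_g22999 (adjusted P = 9.57e-12), and Fe_g44002 had 0.274 (adjusted P = 0.000483) and -0.178 (adjusted P = 0.0288) with them. Fe_g32756 had r of -0.0977 (adjusted P = 0.234) with Fe_g19663 and 0.281 (adjusted P = 0.000235) with Fe_g22999 in this fit, so that Fe_g22999 followed it there. Of the SOC1-like and JOINTLESS-like genes, only Fe_g40350 (r = 0.164) and Fe_g36254 (r = 0.347) still followed Fe_g32756 in this fit. Fe_g40351.1 (r = -0.187) and, over all trees, Fe_g18379 (r = -0.176) opposed it, and the others did not pass. In that joint fit 3.32% of genes followed Fe_g27900 and 0.0742% opposed it. For Fe_g44002 these shares were 28.6% and 31.4%, and for Fe_g32756 48.1% and 22.1%.

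Of the other annotated genes, the next after Fe_g22999 in r with Fe_g27900 was Fe_g44077.1, a factor that binds AT-rich DNA (r = 0.495, adjusted P = 3.69e-09), although it averaged only 0.630 ± 0.388 TPM. Fe_g35305, an NAD(P)H-binding protein, had r = 0.412, Fe_g40685, a MATE transporter, had r = 0.328, and Fe_g44695.1, a pyridoxal-phosphate dependent enzyme, had r = 0.303, and each passed. With Fe_g19663 and Fe_g22999 held, none of these 4 genes passed, with r of 0.162, 0.125, -0.011 and 0.031 for Fe_g44077.1, Fe_g35305, Fe_g40685 and Fe_g44695.1. Fe_g20212, which has no annotation here, had the second highest r over all genes at 0.598, and at 0.413 in the fit with the MADS-box genes. Of the annotated genes, which the study had picked for damage, 6 (4.48%) followed and 18 (13.4%) opposed Fe_g27900, against 1.96% and 0.552% of all genes. With Fe_g44002, 62 (46.3%) followed and 8 (5.97%) opposed, against 17.6% and 6.62%. With Fe_g32756, 84 (62.7%) followed and 2 (1.49%) opposed, against 47.1% and 15.7%.

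The NF-YA and TOPLESS list holds 4 genes. NF-YA proteins are subunits of the complex that binds CCAAT boxes, and TOPLESS proteins are co-repressors. Of these, 3 followed Fe_g44002, against 17.6% of all genes, namely the NF-YA genes Fe_g14387 (r = 0.489) and Fe_g23914 (r = 0.470) and the TOPLESS-related Fe_g6059 (r = 0.333). Both NF-YA genes opposed Fe_g27900 (r = -0.297 and -0.334), but neither did with Fe_g19663 and Fe_g22999 held, where Fe_g6059 no longer passed with Fe_g44002 either. The second TOPLESS-related gene, Fe_g12567.1, passed with none of the 3 in TPM over all trees without covariates. With Fe_g19663 and Fe_g22999 held, the 2 TOPLESS-related genes followed Fe_g27900, as did 6304 of 31000 genes. With Fe_g32756 only Fe_g23914 followed (r = 0.220), against 47.1% of all genes. After median-of-ratios rescaling, which lowered the median r of all genes with Fe_g32756, none followed and 2 opposed. Without the 18 trees 3 of the 4 followed Fe_g32756, as did 6399 of 31002 genes. With 5 principal components held 2 followed it, as did 816 of all genes.

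In the clock and light list, 4 of 5 genes followed Fe_g32756, against 47.1% of all genes. Fe_g21102, a B-box zinc finger, had r = 0.642 (adjusted P = 4.84e-20) at 4.15 ± 1.70 TPM. Fe_g45829, a zinc finger with the B-box and CCT domains of CONSTANS-like proteins, had r = 0.478 (adjusted P = 9.19e-11) at 0.867 ± 0.747 TPM. B-box proteins are known in Arabidopsis for light and day-length signalling. Fe_g28326, a pseudo-response regulator of the clock, had r = 0.239. After rescaling 2 of the 5 genes followed, and Fe_g28326 was among those that no longer passed. Without the 18 trees all 5 followed, and with 5 principal components held 4 did, where 6399 and 816 of 31002 genes followed. With Fe_g44002 only Fe_g21102 (r = 0.242) and Fe_g10721, an EMBRYONIC FLOWER gene (r = 0.281), followed, neither of which passed with the MADS-box genes held. The call of Fe_g21102 with Fe_g44002 was also lost without the 18 trees. With Fe_g27900 and Fe_g32756 held, Fe_g21102 opposed Fe_g44002 (r = -0.162), as did 31.4% of all genes. With 5 principal components held 4 of the 5 genes followed Fe_g44002, as did 1151 of 31002 genes. None of the list passed with Fe_g27900 in TPM without covariates. With 5 principal components held 3 of the 5 opposed Fe_g27900, and after rescaling 1 did, against 587 and 567 of 31002 genes.

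The 3 OVATE genes, transcriptional repressors, followed Fe_g32756, against 47.1% of all genes, and none passed with Fe_g27900 or Fe_g44002. These calls depended on the setting. Fe_g20799 had r = 0.347, Fe_g34397 0.291 and Fe_g34396 0.216. Without the 18 trees named above none of them passed, with r = 0.00672 for Fe_g34397, while 1 followed Fe_g27900 and 2 opposed Fe_g44002. With 5 principal components held, 2 of the 3 opposed Fe_g32756, and Fe_g34397 had r = -0.289, while all 3 followed Fe_g27900 (median r 0.462) and all 3 opposed Fe_g44002 (median r -0.282).

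In the joint fit the slopes on Fe_g44002 and Fe_g32756 were compared directly, as the difference Fe_g44002 minus Fe_g32756 in log2(TPM + 1) per SD. Of the annotated genes, the SOC1-like Fe_g40351.1 was at the upper end with 0.57 ± 0.16 (SE, adjusted P = 0.00066), and the NF-YA gene Fe_g14387 had 0.24 ± 0.04 (adjusted P = 9.54e-09). At the lower end were Fe_g45829 with -0.60 ± 0.06 (adjusted P = 1.11e-15) and Fe_g34397 with -0.59 ± 0.15 (adjusted P = 0.000312). The B-box gene Fe_g21102 had -0.43 ± 0.06 (adjusted P = 5.32e-11). Fe_g14387 and Fe_g21102 are named from the lists above, and other annotated genes lay nearer to either end. Fe_g18379 is left out because it splits the trees. Over all 31000 genes, the difference passed with the larger slope on Fe_g44002 for 26.8% and on Fe_g32756 for 42.4%. It ranged from 3.86 ± 0.43 for the unannotated Fe_g11800.1 and 3.77 ± 0.46 for Fe_g16224 to -2.46 ± 0.26 for Fe_g34637 and -2.81 ± 0.30 for Fe_g44182. With 5 principal components held, 64 genes differed in place of 21447, and none of the genes named here passed, at 0.43 ± 0.21 for Fe_g40351.1 and -0.24 ± 0.07 for Fe_g45829. Without the 18 trees, Fe_g34397 had -0.21 ± 0.15 and did not pass.

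In the calcium and stress signalling list, 5 of 7 genes followed Fe_g32756 and 4 followed Fe_g44002, against 47.1% and 17.6% of all genes. The count with Fe_g44002 was 1 with the MADS-box genes held, and 2 with 5 principal components held or without the 18 trees. Fe_g20031, a cyclic nucleotide-gated channel, had r = 0.483 with Fe_g32756. Fe_g7132 carries the CG-1 domain of calmodulin-binding transcription activators and had r = 0.362, and Fe_g16439, a diacylglycerol kinase, had r = 0.341. Fe_g25658, a calcium-transporting ATPase, was the only gene of the list to oppose Fe_g27900 (r = -0.317, adjusted P = 0.00244), and it followed both Fe_g44002 (r = 0.331) and Fe_g32756 (r = 0.361). With the MADS-box genes held its calls with Fe_g27900 and Fe_g44002 were lost. With 5 principal components held, Fe_g20031, Fe_g7132 and Fe_g16439 no longer passed with Fe_g32756. Fe_g45748, a protein with a calmodulin-binding IQ motif outside this list, was the annotated gene with the highest r with Fe_g32756 (r = 0.650, adjusted P = 1.47e-20), at 52.2 ± 15.3 TPM.

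In TPM over all trees without covariates, the remaining lists had no gene that passed with Fe_g27900. Their counts with Fe_g32756 are read against the 47.1% of all genes that followed it, and with Fe_g44002 against 17.6%. With 5 principal components held, 1 cell wall and 1 plastid gene followed Fe_g27900, as did 1508 of 31002 genes. In that fit 1 cell wall gene, 2 auxin and membrane transport genes and 1 protein kinase opposed it, against 587 of all genes. With the MADS-box genes held, 1 kinase followed it and 2 plastid genes and 1 heat shock gene opposed it, against 6304 and 4698 of 31000. Of 6 cell wall genes, 4 followed Fe_g32756, led by the polysaccharide biosynthesis gene Fe_g7485 (r = 0.444), and 2 followed Fe_g44002, led by Fe_g4298.2, a xyloglucan endotransglycosylase (r = 0.320). Of 4 auxin and membrane transport genes, 2 followed Fe_g32756, led by the auxin transporter-like Fe_g22928.1 (r = 0.387), and 2 followed Fe_g44002, the membrane transport proteins Fe_g28064 (r = 0.364) and Fe_g28062 (r = 0.308). Of 5 protein kinases, 4 followed Fe_g32756, led by Fe_g10961.1 (r = 0.370), and 1 followed Fe_g44002, Fe_g38091 (r = 0.194). Of 4 heat shock and chaperone genes, the heat shock factor Fe_g33132 (r = 0.263) and the chaperonin Fe_g36128 (r = 0.216) followed Fe_g32756, and the heat shock protein Fe_g35175.1 opposed it (r = -0.301). Of 3 plastid genes, 1 followed Fe_g32756, the isoprenoid kinase Fe_g39558 (r = 0.243). On log2(TPM + 1) over all trees without covariates, the heat shock and plastid lists had no gene that passed with Fe_g44002. With a pseudocount of 0.1, 1 heat shock gene followed it. With 5 principal components held, 1 heat shock gene followed and 1 opposed it, against 1151 and 1637 of all genes. With the MADS-box genes held, 1 plastid gene followed it, as did 3915 of all genes. After median-of-ratios rescaling, Fe_g33132, Fe_g36128 and Fe_g39558 no longer passed with Fe_g32756, nor did Fe_g38091 with Fe_g44002 or Fe_g32756. Then 1 of the 6 cell wall genes followed Fe_g32756, and of the 5 protein kinases 1 followed and 1 opposed it. The call of Fe_g22928.1 was lost with 5 principal components held.

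Of the 2 other ethylene genes, 1 passed with 1 of the 3. Fe_g44878 followed Fe_g44002 (r = 0.206, adjusted P = 0.0274), a call that was lost with a pseudocount of 0.1, after median-of-ratios rescaling and with the MADS-box genes held. It had r = -0.0265 with Fe_g27900 and 0.151 with Fe_g32756. The EIN3-like Fe_g37713 had r between 0.0623 and 0.114 with the 3 genes and passed with none. Other settings gave other calls. With Fe_g19663 and Fe_g22999 held, both genes followed Fe_g27900, with r of 0.310 for Fe_g37713 and 0.201 for Fe_g44878. In that fit 6304 of 31000 genes followed Fe_g27900. With 5 principal components held, Fe_g44878 opposed Fe_g27900 (r = -0.221) and followed Fe_g44002 (r = 0.361) and Fe_g32756 (r = 0.349). After rescaling, Fe_g37713 opposed Fe_g32756 (r = -0.233), and without the 18 trees Fe_g44878 followed it (r = 0.236).

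**Figure D5:**
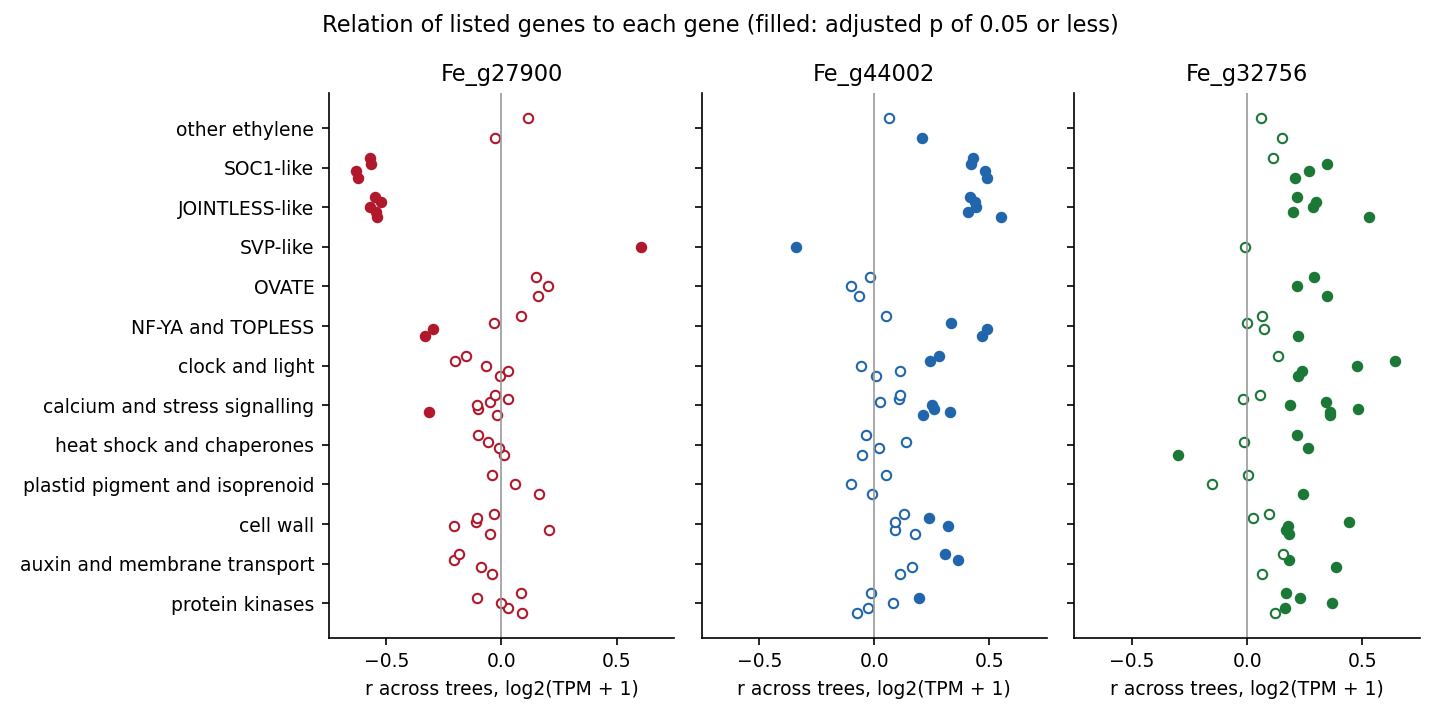
Pearson r across 182 trees, on log2(TPM + 1), of each listed gene (points, grouped by list down the page) with Fe_g27900, Fe_g44002 and Fe_g32756 (panels). Filled points passed at a limma adjusted P of 0.05 or less, and Fe_g18379 is not drawn because it splits the trees. The SOC1-like and JOINTLESS-like points lie below -0.5 with Fe_g27900 and above 0.4 with Fe_g44002, while the SVP-like point lies at 0.605 and -0.341.

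Over all 54 listed genes, 1 followed and 13 opposed Fe_g27900, 25 followed and 1 opposed Fe_g44002, and 34 followed and 1 opposed Fe_g32756. Over all genes the shares were 1.96% and 0.552%, 17.6% and 6.62%, and 47.1% and 15.7%. The counts with 5 principal components held were 6 and 21 for Fe_g27900, 28 and 7 for Fe_g44002, and 26 and 7 for Fe_g32756. Over all 31002 genes that fit had 1508 and 587, 1151 and 1637, and 816 and 1072. After median-of-ratios rescaling the listed genes gave 1 and 15 for Fe_g27900, 22 and 1 for Fe_g44002, and 20 and 7 for Fe_g32756. Over all 31002 genes the rescaled counts were 745 and 567, 4424 and 4105, and 9198 and 9239. In TPM over all trees without covariates, Fe_g32756 had 1924 genes with r of 0.5 or more and Fe_g27900 had 5. These counts depended on the setting, at 557 and 4 after median-of-ratios rescaling and 24 and 6 without the 18 trees. With 5 principal components held, Fe_g32756 had 5 such genes and Fe_g27900 had 23. The highest r with Fe_g44002 was 0.711, with the unannotated Fe_g28849.1, followed by Fe_g21749 at 0.678. Annotated genes with high r with Fe_g44002 also included the epimerase family gene Fe_g23910 (r = 0.515). The lowest was Fe_g11100 at -0.507, which followed Fe_g27900 with r = 0.484. Below zero with Fe_g44002 were also the cyclin-dependent kinase inhibitor Fe_g23915 (r = -0.280) and the methyltransferase Fe_g35582 (r = -0.263), both of which passed, though neither did with the MADS-box genes held.

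With Fe_g32756, the highest r over all genes was 0.757 for Fe_g17477, then 0.742 for Fe_g45472, and the lowest -0.596 for Fe_g11171 and -0.592 for Fe_g19120.2, none of them annotated here. Fe_g19120.2 averaged only 0.439 ± 1.08 TPM (SD), and its rho with Fe_g32756 was weaker than its r, at -0.30. With 5 principal components held, Fe_g17477 had r = 0.255 and Fe_g19120.2 had -0.0594, while Fe_g45472 kept 0.586. Fe_g8282, of the TUB family, had r = 0.496, and 0.184 with the components held, which did not pass. Besides Fe_g35175.1, Fe_g27900 was the only annotated gene to oppose Fe_g32756. Among genes with identifiers within 2 of each of the 3, none of the 4 around Fe_g27900 and none of the 2 tested around Fe_g44002 passed. All 4 around Fe_g32756 passed, between r = 0.406 for Fe_g32754 and -0.251 for Fe_g32757, where 47.1% of all genes followed and 15.7% opposed it.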

How the data were processed

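Leaf RNA-seq of 182 trees was used, all in 1 group. Per the labels and the study's methods, reads were trimmed (Trimmomatic) and mapped to the predicted coding sequences by Salmon 0.8, and tximport in R 4.3.3 turned its output into gene values. The authors deposited TPM, corrected for coding length and summing to 1000000 per tree, so depth and the precision it gives are unknown. Trees were treated as independent, and relatedness was not modelled. Sequences and genome positions were not analysed here.

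The 31003 genes reaching 1 TPM in 19 or more trees entered the tests, on log2(TPM + 1). Co-expression was fitted with limma 3.58.1 (eBayes with trend) with the standardized log2(TPM + 1) of a lead gene as covariate, or of all 3 genes together, and P values were adjusted by Benjamini-Hochberg over all genes. The slopes on Fe_g44002 and Fe_g32756 were compared in the joint fit. Pairs and library measures had permutation tests with 100000 resamples in Python 3.11.15, and intervals of r are 95% Fisher z intervals. A gene was taken to split the trees where its density dipped below 0.5 of the smaller of 2 peaks, with 18 or more trees to either side. The procedures were tested on simulated data.

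The 3 genes, the lists and the tests were chosen with earlier results of these data known, and gene names follow the annotations of the study's damage-related genes. Genes were named by rule: up to 4 per list by the largest absolute r, the 2 highest and 2 lowest r per gene over all genes, the 5 highest and lowest among annotated genes, the ends of the slope comparison and neighbouring identifiers. Other genes at the ends of these ranges that did not pass are not described. Alternatives were a pseudocount of 0.1, no filter, median-of-ratios scaling, Spearman ranks, TPM without a log, covariates (5 principal components, genes detected, Fe_g19663 with Fe_g22999), listing stretches and trees left out. Leaving out the 18 trees was chosen after seeing the data.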

Additional observations from a re-analysis of the deposited data

How the results depend on the processing

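No paired analysis was possible because the trees form 1 group. The negative r of Fe_g27900 with Fe_g44002 and the positive r of Fe_g44002 with Fe_g32756 kept their direction under every alternative run. The first no longer passed adjustment over all genes within stretch 2 (r = -0.407) or 3 (r = -0.494), which hold fewer trees. The r of Fe_g27900 with Fe_g32756 no longer passed with Fe_g44002 held (-0.0497), without Ash18 and Ash15 (-0.239), or within stretch 2 (-0.254) or 3 (-0.161). 

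Counts of genes moved far more. With median-of-ratios scaling, 567 genes opposed Fe_g27900, 4105 opposed Fe_g44002, and 9198 followed and 9239 opposed Fe_g32756; in the joint fit 0.597% of genes followed Fe_g27900 and 34.4% opposed Fe_g32756. With 5 principal components held, 1508 followed and 587 opposed Fe_g27900, 1151 followed Fe_g44002, and 816 followed and 1072 opposed Fe_g32756. With the components in the joint fit, 1.99% followed and 0.574% opposed Fe_g27900, 1.03% followed and 1.32% opposed Fe_g44002, 0.735% followed and 0.665% opposed Fe_g32756, and the slopes on Fe_g44002 and Fe_g32756 differed for 64 genes in place of 21447. With Fe_g19663 and Fe_g22999 held, 6304 followed and 4698 opposed Fe_g27900 and 1116 opposed Fe_g44002. With a pseudocount of 0.1, 1339 opposed Fe_g44002. With Spearman ranks, 4604 opposed Fe_g44002 and 2848 opposed Fe_g32756. Without the 18 trees, 7035 opposed Fe_g44002, and 6399 followed and 824 opposed Fe_g32756; in the joint fit 5.13% followed and 0.732% opposed Fe_g27900 and 12.98% opposed Fe_g32756. The cause of these shifts was not tested. Depth is unknown, and Fe_g44002 was under 1 TPM in 84 trees.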
